A study of Mus musculus with 20 samples.

Results

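Sox9, Sox5 and Sox6 encode the 3 transcription factors known as the chondrogenic Sox trio, and their RNA was followed here in ATDC5 cells with and without the catalytic part of Kmt2d. ATDC5 is a mouse cell line that turns into chondrocytes in culture, and Kmt2d is a histone H3 lysine 4 methyltransferase found at enhancers. The rows of the deposited table whose mouse gene symbol was Sox9, Sox5 or Sox6 were taken, which gave 3 of its 27911 genes. All 3 passed the filter on low counts, as did 15467 genes in all. The 4 groups were Kmt2d-/- clones at day 7 (n = 2), Kmt2d+/+ clones at day 7 (n = 3), Kmt2d-/- clones at day 0 (n = 2) and Kmt2d+/+ clones at day 0 (n = 3). Each clone is a clonal ATDC5 line of its own, was sampled on both days and is 1 biological replicate, so 5 clones gave 10 libraries. The Kmt2d-/- clones carry a deletion of the catalytic SET domain on both alleles. Day 0 cells were undifferentiated, and day 7 cells had been kept in differentiation medium with insulin, transferrin, selenium, ascorbic acid and beta-glycerophosphate. The title and design set Kmt2d-deficient clones beside wild-type ones, both as chondrocytes and as undifferentiated cells.

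Sox9 is the factor without which mesenchymal cells do not become chondrocytes. It belongs to the SoxE group, binds DNA through a high mobility group (HMG) box and turns on cartilage matrix genes such as Col2a1 and Acan. Sox5 and Sox6 are near relatives of each other in the SoxD group. They have no known activation domain of their own, and in mice they act beside Sox9 on cartilage enhancers.

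The 3 coding sequences are alike mainly in the HMG box, and a stretch of it is shown. The stretch was picked as the 90 coding bases most alike between Sox5 and Sox6, with the best match to that Sox5 stretch in Sox9. The bases below come from the GRCm38 genome on the coding strand, 90 bases of each gene, at chr11:112782887-112782976 (plus strand) for Sox9, chr6:143841200-143841289 (minus strand) for Sox5 and chr7:115489689-115489778 (minus strand) for Sox6. Capitals mark the 36 positions where the 3 sequences are not all the same.
Sox9: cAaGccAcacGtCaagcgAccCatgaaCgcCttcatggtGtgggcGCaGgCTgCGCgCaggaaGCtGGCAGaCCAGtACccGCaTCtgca
Sox5: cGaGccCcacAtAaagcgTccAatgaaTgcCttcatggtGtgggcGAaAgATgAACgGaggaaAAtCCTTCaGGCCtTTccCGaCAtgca
Sox6: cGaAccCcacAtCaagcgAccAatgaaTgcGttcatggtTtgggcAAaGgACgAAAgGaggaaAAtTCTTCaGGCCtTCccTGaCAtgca
Sox5 and Sox6 differed at 12 of these positions, whereas Sox9 differed from Sox5 at 30 and from Sox6 at 32. Because the stretch was picked for the likeness of Sox5 to Sox6, these counts do not measure how far the 3 genes differ. Over whole transcripts, Sox5 and Sox6 shared no stretch of 31 bases, and their longest shared run was 23 bases. Reads of one are therefore not easily counted for the other. Against all other annotated genes, Sox6 shared 0 of its 14869 distinct 31-base words, Sox9 shared 55 of 4105 (1.34%) and Sox5 shared 1353 of 14440 (9.37%), so some of the Sox5 estimate can depend on how reads were split.

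The 3 genes differ widely in structure. Sox9 (ENSMUSG00000000567, chr11:112782224-112787760, plus strand) has 1 annotated transcript of 4135 bases. Sox5 (ENSMUSG00000041540, chr6:143828425-144781977, minus strand) has 14 transcripts, and its exons together cover 14376 bases. Sox6 (ENSMUSG00000051910, chr7:115470872-116038796, minus strand) has 16 transcripts with exons of 14832 bases in all. The files hold 1 value per gene, so which transcripts were present was not measured. These positions and transcripts are those of the GENCODE vM21 annotation of GRCm38.

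Libraries held 35792773 to 66237188 estimated counts over both runs, and levels are given as CPM, counts relative to library size with the TMM factors of edgeR applied. Expression of the targeted gene does not check the genotype here, since only a part of Kmt2d was deleted and the value covers the whole gene. Kmt2d had 175 and 113 CPM in Kmt2d-/- clones at day 7, against 187, 173 and 207 CPM in Kmt2d+/+ clones, and the difference did not pass (log2 difference -0.39, edgeR adjusted p = 0.363). The labels give one clone name to both a Kmt2d-/- and a Kmt2d+/+ clone, and groups were kept as labelled. These are bulk samples, so fewer cells of a type and less RNA per cell cannot be told apart.

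All 3 genes were detected in each of the 10 libraries, and each had its highest mean level in Kmt2d-/- clones at day 7. Sox9 was by far the most abundant. At day 7 it stood at 409 and 481 CPM in the Kmt2d-/- clones, against 228, 116 and 96.1 CPM in the Kmt2d+/+ clones. At day 0 it stood at 155 and 175 CPM in the Kmt2d-/- clones, against 33.7, 69.4 and 21.2 CPM in the Kmt2d+/+ clones. On both days the lower Kmt2d-/- clone was above the highest Kmt2d+/+ clone. In Kmt2d-/- clones at day 7 Sox9 ranked in the top 2.35% of the tested genes of both libraries, while in Kmt2d+/+ clone 3 at day 0 it ranked at 47.1%.

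Sox5 had at day 7 46.0 and 61.4 CPM in the Kmt2d-/- clones, against 22.04, 10.95 and 19.01 CPM in the Kmt2d+/+ clones. At day 0 it had 3.84 and 25.7 CPM in the Kmt2d-/- clones, against 3.35, 4.57 and 5.44 CPM in the Kmt2d+/+ clones. The groups were apart at day 7. At day 0 only Kmt2d-/- clone 2 was high, and clone 1 lay within the Kmt2d+/+ range.

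Sox6 had at day 7 38.1 and 27.7 CPM in the Kmt2d-/- clones, against 15.6, 8.37 and 7.23 CPM in the Kmt2d+/+ clones. At day 0 it had 22.5 and 8.60 CPM in the Kmt2d-/- clones, against 4.35, 9.10 and 6.47 CPM in the Kmt2d+/+ clones. Again the groups were apart at day 7 and overlapped at day 0, but here Kmt2d-/- clone 1 was the high one. The 2 Kmt2d-/- clones thus traded places at day 0: clone 2 had the higher Sox5 level and clone 1 the higher Sox6 level, while their Sox9 levels were close.

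**Figure D1:**
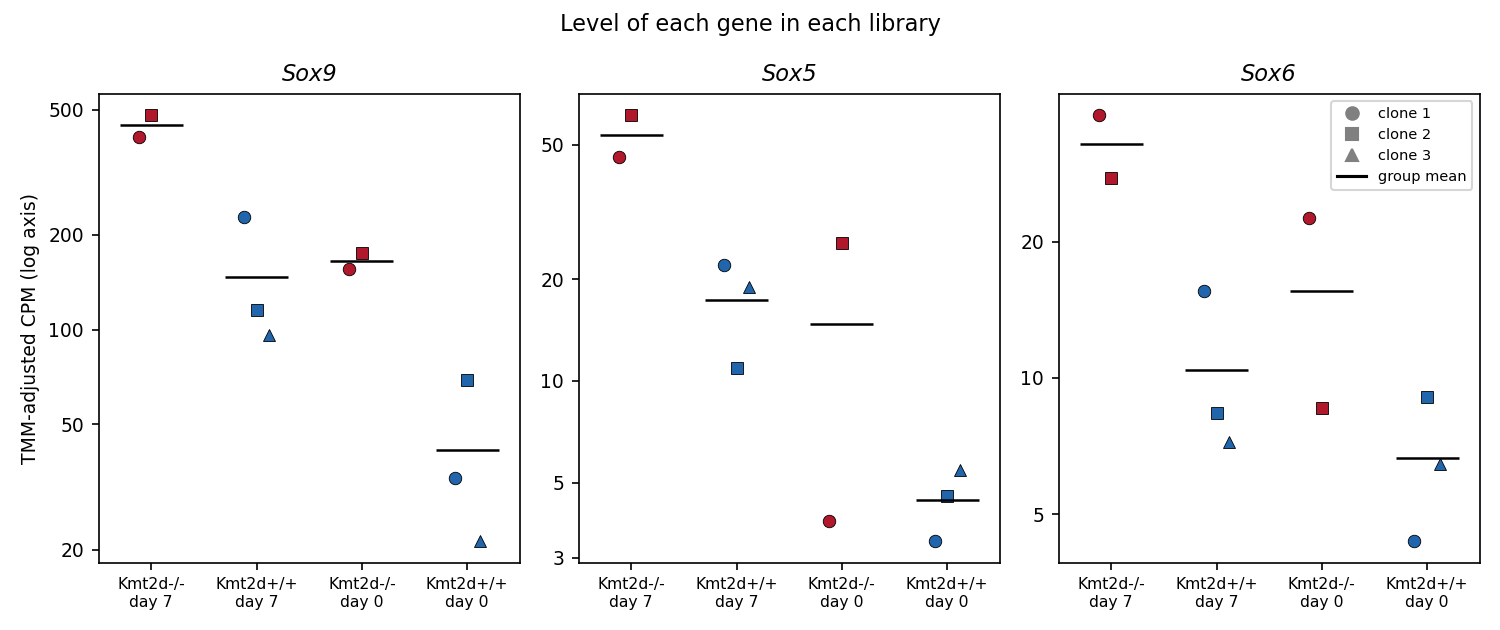
Level of Sox9, Sox5 and Sox6 in each library as TMM-adjusted CPM on a log axis, by genotype and day, with 1 symbol per clone and a bar at the group mean. The Kmt2d-/- clones at day 7 are the highest group for each gene, at 445 CPM on average for Sox9, 53.7 CPM for Sox5 and 32.9 CPM for Sox6.

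The order of the 4 groups by mean was not the same for the 3 genes. For Sox9, Kmt2d-/- clones at day 7 (445 ± 50.8 CPM, SD) came first, then Kmt2d-/- clones at day 0 (165 ± 13.8 CPM) and Kmt2d+/+ clones at day 7 (147 ± 71.4 CPM), whose values overlapped, and Kmt2d+/+ clones at day 0 were last (41.4 ± 25.0 CPM). For Sox5, Kmt2d-/- clones at day 7 (53.7 ± 10.9 CPM) were followed by Kmt2d+/+ clones at day 7 (17.3 ± 5.73 CPM) and Kmt2d-/- clones at day 0 (14.8 ± 15.4 CPM), and Kmt2d+/+ clones at day 0 were again last (4.45 ± 1.05 CPM). The Sox5 range of Kmt2d-/- clones at day 0 overlapped that of both Kmt2d+/+ groups. For Sox6, Kmt2d-/- clones at day 7 (32.9 ± 7.37 CPM) were above all other libraries. The other groups, Kmt2d-/- clones at day 0 (15.6 ± 9.86 CPM), Kmt2d+/+ clones at day 7 (10.4 ± 4.53 CPM) and Kmt2d+/+ clones at day 0 (6.64 ± 2.38 CPM), overlapped one another.

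At day 7 the first question was whether the trio differed between genotypes after differentiation. In Kmt2d-/- clones Sox9 was 3.03-fold, Sox5 3.10-fold and Sox6 3.17-fold the level of Kmt2d+/+ clones, nearly the same ratio for all 3. None of the 3 passed the adjusted threshold of 0.05 in edgeR's quasi-likelihood test over all genes, which 1.87% of the tested genes passed. The log2 difference of Sox9 was 1.60 ± 0.48 (SE, edgeR adjusted p = 0.117, 95% interval of the fold 1.42 to 6.47). That of Sox5 was 1.63 ± 0.62 (edgeR adjusted p = 0.194, fold 1.16 to 8.24). That of Sox6 was 1.66 ± 0.48 (edgeR adjusted p = 0.108, fold 1.49 to 6.76). All 3 had an unadjusted edgeR p under 0.05, as had 19.9% of genes, and were higher, as were 8.95%, and all 3 had groups that did not overlap in this direction, as had 17.9% of genes.

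The day 7 call depended on the tool. DESeq2, which passed 10.4% of genes (4.29% as higher), passed 2 of the 3 members as higher: Sox9 (adjusted p = 0.0182) and Sox6 (adjusted p = 0.0140), with log2 differences of 1.60 and 1.66. By limma-voom none passed, where 3.45% of genes did. Among the alternatives Sox9 had adjusted p between 0.0182 and 0.337, Sox5 between 0.0673 and 0.441 and Sox6 between 0.0140 and 0.372, and the difference was positive each time. The spread within groups was above the median for these genes. The biological coefficient of variation in edgeR was 0.382 for Sox9, 0.491 for Sox5 and 0.399 for Sox6, against a median of 0.281 over all tested genes. The single value that edgeR fitted to all genes together was 0.385. Differences between the runs of a library, given below, are part of this spread.

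At day 0, before differentiation, the largest of the 3 differences was that of Sox9. It was 3.98-fold the Kmt2d+/+ level in Kmt2d-/- clones (log2 difference 1.99 ± 0.49, edgeR adjusted p = 0.0654, 95% interval of the fold 1.86 to 8.54). Sox5 was 3.31-fold (1.73 ± 0.63, edgeR adjusted p = 0.172, fold 1.23 to 8.91) and Sox6 was 2.34-fold the Kmt2d+/+ level (1.23 ± 0.48, edgeR adjusted p = 0.197, fold 1.10 to 5.01). None of the 3 passed in edgeR, where 2.15% of genes did. All 3 had an unadjusted p under 0.05, as had 20.2% of genes, and were higher, as were 10.3%, and only Sox9 of the 3 had groups that did not overlap, as had 18.6% of genes with the Kmt2d-/- clones higher. DESeq2 passed 10.5% of genes (4.86% as higher) and, of the 3, Sox9 (log2 difference 1.98, adjusted p = 0.00202). By limma-voom 0 of the 3 passed, where 1.72% of genes did. Sox9 also passed in edgeR without Kmt2d+/+ clone 2, the highest Kmt2d+/+ clone at day 0 (log2 difference 2.59, edgeR adjusted p = 0.0270), a fit that passed 3.21% of genes as higher. It did not pass when any other clone was left out, with edgeR adjusted p from 0.163 to 0.243.

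The Sox5 difference at day 0 rested on 1 library. Its log2 difference was -0.21 when Kmt2d-/- clone 2 was left out, so the direction turned, and 2.52 when Kmt2d-/- clone 1 was. The Sox6 difference at day 0 was 0.37 when Kmt2d-/- clone 1 was left out and at most 1.77 when any other clone was.

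**Figure D2:**
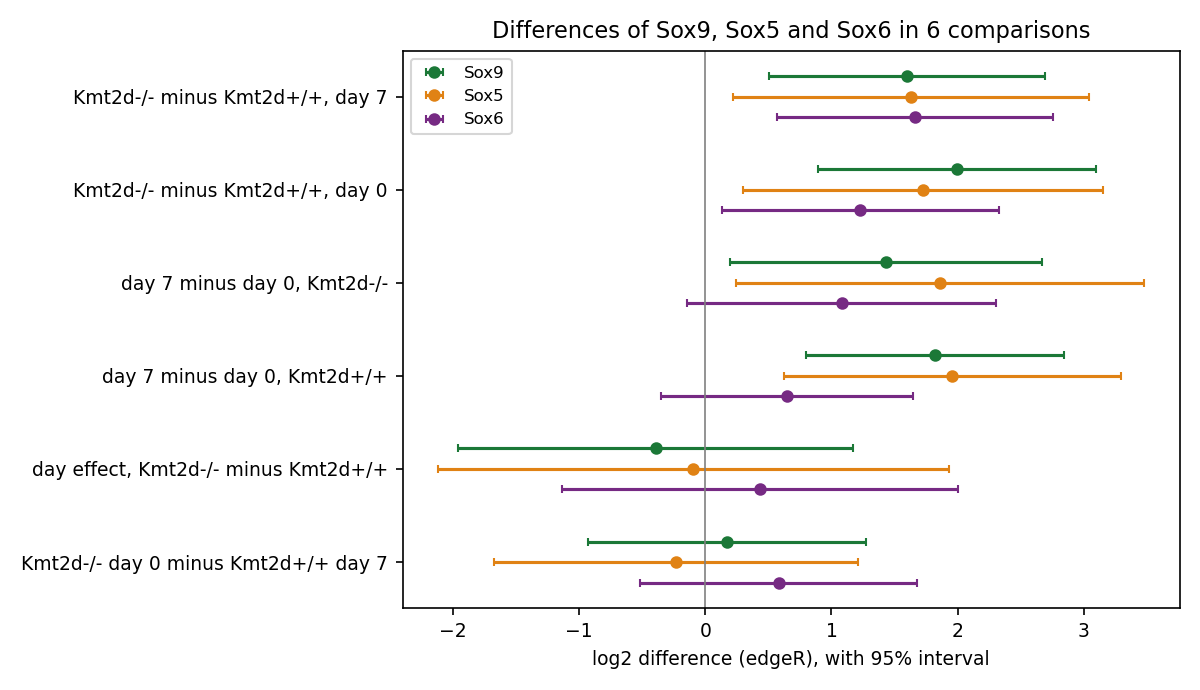
Log2 differences of Sox9, Sox5 and Sox6 in the 6 comparisons from edgeR, with 95% intervals. The genotype differences on both days lie to the right of 0, between 1.23 and 1.99, and the intervals of the day effect difference between genotypes all span 0.

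From day 0 to day 7, Sox9 and Sox5 were higher at day 7 within each of the 5 clones, which held for 20.2% of all tested genes. Sox9 at day 7 was 2.63-fold and 2.75-fold its day 0 level in the Kmt2d-/- clones, and 6.77-fold, 1.67-fold and 4.53-fold in the Kmt2d+/+ clones. Sox5 at day 7 was 11.96-fold and 2.39-fold its day 0 level in the Kmt2d-/- clones, and 6.58-fold, 2.40-fold and 3.496-fold in the Kmt2d+/+ clones. For Sox6 the ratios were smaller on the whole: it was 1.69-fold and 3.22-fold its day 0 level in the Kmt2d-/- clones, and 3.58-fold, 0.920-fold and 1.12-fold in the Kmt2d+/+ clones. Among the Kmt2d+/+ clones only clone 1 had a Sox6 level more than 2-fold higher at day 7, and its day 0 library is the one whose 2 runs differed most for Sox6. Every day 7 library of the Kmt2d-/- clones lay above every day 0 library of that genotype for all 3 genes, as for 22.9% of tested genes. In Kmt2d+/+ clones this held for Sox9 and Sox5 but not for Sox6, and for 16.2% of tested genes.

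In Kmt2d+/+ clones the day effect was 3.54-fold for Sox9 (log2 difference 1.82 ± 0.45, edgeR adjusted p = 0.0528), 3.89-fold for Sox5 (1.96 ± 0.59, edgeR adjusted p = 0.0846) and 1.56-fold for Sox6 (0.64 ± 0.44, edgeR adjusted p = 0.406). None of the 3 passed in this fit, where 5.08% of genes did, and Sox9 and Sox5 had an unadjusted p under 0.05 and were higher, as were 13.9% of genes. Both days of a clone come from the same line, and with the clone as a term in edgeR the day effect passed as a rise for Sox9 (1.90, adjusted p = 0.0262) and for Sox5 (1.92, adjusted p = 0.0444), where 18% of genes passed (10.3% as a rise). With the clone as a random block in limma-voom, where 22.4% of genes passed (11.9% as a rise), both rose as well (Sox9 1.89, adjusted p = 0.00706, and Sox5 1.90, adjusted p = 0.0293). DESeq2 without the clone passed 14.2% of genes (8.54% as a rise) and also Sox9 (adjusted p = 0.00102) and Sox5 (adjusted p = 0.00574). By limma-voom without the clone Sox9 alone passed (adjusted p = 0.0436), where 5.08% of genes did (2.8% as a rise). Sox6 passed in none of the alternatives, with adjusted p from 0.135 to 0.999.

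In Kmt2d-/- clones the day effect was 2.70-fold for Sox9 (log2 difference 1.43 ± 0.55, edgeR adjusted p = 0.260), 3.64-fold for Sox5 (1.86 ± 0.72, edgeR adjusted p = 0.264) and 2.12-fold for Sox6 (1.08 ± 0.54, edgeR adjusted p = 0.413). None of the 3 passed in edgeR, where 1.27% of genes did, nor in DESeq2 (6.76% of genes) or in limma-voom without the clone (1.16%). Sox9 and Sox5 had an unadjusted p under 0.05 and were higher, as were 7.84% of genes. With the clone as a random block in limma-voom, which passed 8.42% of genes (4.76% as a rise), Sox9 (1.43, adjusted p = 0.0497) and Sox5 (2.40, adjusted p = 0.0233) rose. With the clone as a term in edgeR, which passed 5.57% of genes, neither did.

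Whether the day effect itself differed between genotypes was tested with an interaction term. The log2 day effect in Kmt2d-/- clones minus that in Kmt2d+/+ clones was -0.39 for Sox9 (95% interval -1.96 to 1.17), -0.10 for Sox5 (-2.12 to 1.93) and 0.44 for Sox6 (-1.13 to 2.01). All 3 adjusted p were 1.0 in edgeR, where 0% of genes passed and 3.67% had an unadjusted p under 0.05. None of the 3 had such an unadjusted p, and none passed in DESeq2, which called 0.146% of genes, or in limma-voom, which called 0%. The intervals leave room for a difference of up to about 2 on the log2 scale in either direction, so a difference in the day effect was not detectable with these clones, and likeness was not shown.

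Kmt2d-/- clones at day 0 were also set against Kmt2d+/+ clones at day 7, that is, undifferentiated mutant cells against differentiated unmutated ones. The log2 difference was 0.17 for Sox9 (edgeR adjusted p = 0.864), -0.23 for Sox5 (edgeR adjusted p = 0.858) and 0.58 for Sox6 (edgeR adjusted p = 0.492). None of the 3 passed in edgeR, where 5.99% of genes did, none had an unadjusted p under 0.05, as had 25.5% of genes, and none passed in DESeq2 (15.6% of genes) or limma-voom (6.03%). Differences in the trio between undifferentiated Kmt2d-/- and differentiated Kmt2d+/+ clones were thus not detectable with these clones. This comparison shares its samples with the others.

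To compare levels between genes, CPM were divided by the exon length in kilobases. On this scale Sox9 was above Sox5 and Sox6 in each of the 10 libraries, by 13.6-fold (Kmt2d+/+ clone 3, day 0) to 141-fold (Kmt2d-/- clone 1, day 0) over Sox5 and by 11.8-fold to 72.9-fold over Sox6. With the length of the longest transcript in place of all exons, the ranges were 6.84 to 70.9 and 6.88 to 42.6. Sox5 per kilobase was above Sox6 in all 5 libraries of day 7, by 1.24-fold and 2.28-fold in the Kmt2d-/- clones and by 1.46-fold, 1.35-fold and 2.71-fold in the Kmt2d+/+ clones. At day 0 the Sox5 to Sox6 ratio was 0.176 and 3.08 in the Kmt2d-/- clones, and 0.794, 0.519 and 0.867 in the Kmt2d+/+ clones. At day 0, then, Sox6 was ahead in 4 of 5 libraries, although for Kmt2d+/+ clone 3 the ratio became 1.01 with the longest transcript.

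Each library had been run on 2 flow cells, which gives a technical error for each gene. The Sox9 CPM of the 2 runs differed by 1.06-fold in the median and at most by 1.16-fold. Sox5 differed by 1.18-fold in the median and at most by 2.77-fold, in Kmt2d-/- clone 1 at day 0, with 50 and 109 estimated counts. Sox6 was the least repeatable: its runs differed by 1.69-fold in the median and by up to 5.34-fold, in Kmt2d+/+ clone 1 at day 0, with 135 and 16 estimated counts. The gap between runs was wider than for 95% of genes of like level in 7 of 10 libraries for Sox6, in 2 for Sox5 and in 0 for Sox9. Sox6 is thus less precise than its counts alone would give. The Sox6 genotype difference at day 7 was 1.61 in run 1 alone (edgeR adjusted p = 0.0429, where 0.747% of genes passed as higher) and 1.80 in run 2 alone (edgeR adjusted p = 0.335). At day 0 it was 1.35 in run 1 (edgeR adjusted p = 0.0626) and 1.07 in run 2 (edgeR adjusted p = 0.566).

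**Figure D3:**
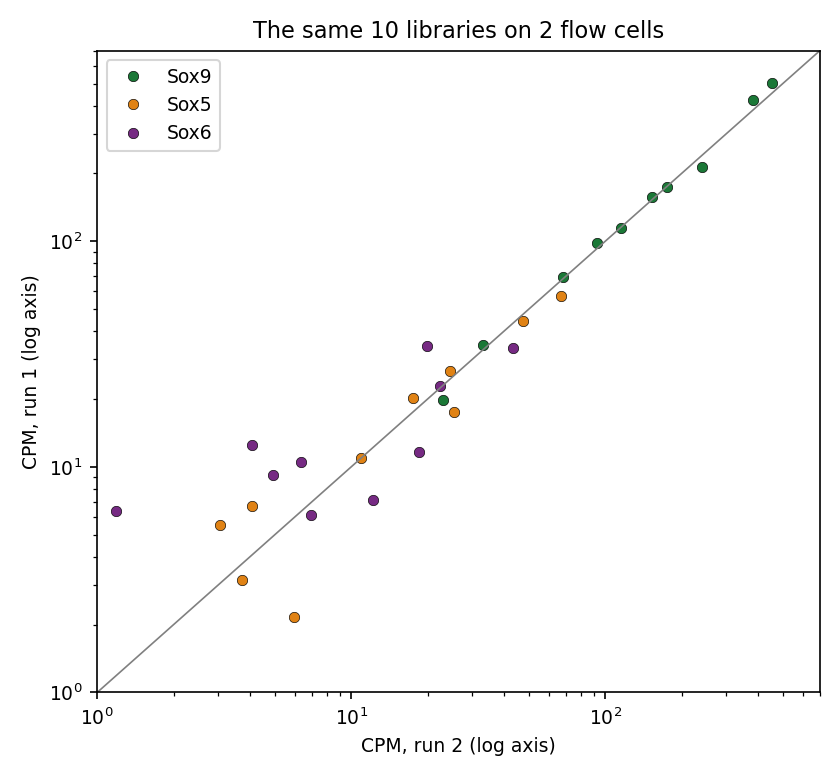
CPM of Sox9, Sox5 and Sox6 in run 1 against run 2 of the same 10 libraries, both on log axes, with the line of equal values. Sox9 points lie on the line within 1.16-fold, while Sox6 points lie up to 5.34-fold away from it.

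Other Sox genes were next measured in the same libraries, to see the trio within its family. Of 17 further Sox genes, 8 passed the filter on low counts (Sox2, Sox4, Sox8, Sox11, Sox12, Sox13, Sox18 and Sox21). None passed in edgeR between genotypes on either day. There 1 of the 8 had an unadjusted p under 0.05 at day 7, against 19.9% of all genes, and 1 at day 0, against 20.2%. On each day 7 of 8 differences were positive, against 48.6% of all genes at day 7 and 50.3% at day 0. Sox4, a SoxC factor, was the most abundant at 126 to 418 CPM, with a log2 difference of 0.80 at day 7 (edgeR adjusted p = 0.379). Sox12, another SoxC factor, stood at 77.8 ± 8.34 CPM in Kmt2d-/- clones and 44.5 ± 13.7 CPM in Kmt2d+/+ clones at day 7 (SD, edgeR adjusted p = 0.357). Sox2 had 36.3 ± 1.28 CPM in Kmt2d-/- clones and 28.2 ± 10.7 CPM in Kmt2d+/+ clones at day 7, and Sox11, Sox13 and Sox18 averaged under 5 CPM in both.

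Sox8 is a SoxE gene like Sox9. It had at day 7 31.8 and 8.22 CPM in Kmt2d-/- clones against 17.1, 4.82 and 5.54 CPM in Kmt2d+/+ clones, and at day 0 20.6 and 0.138 CPM against 5.99, 9.63 and 11.8 CPM. The 2 genotypes overlapped on both days. Sox10, the other SoxE gene, had at most 3 counts in any library. Sox21, a SoxB factor, had the largest genotype difference of the 8: 5.83 and 5.92 CPM in Kmt2d-/- clones against 0.247, 1.64 and 0.723 CPM in Kmt2d+/+ clones at day 7 (log2 difference 2.75, edgeR adjusted p = 0.218). At day 0 it had 16.6 and 4.86 CPM in Kmt2d-/- clones against 0.315, 3.41 and 0.274 CPM in Kmt2d+/+ clones (3.01, edgeR adjusted p = 0.180). In DESeq2 it was the 1 of the 8 that passed there (adjusted p = 0.0338), where 10.5% of all genes did. Between days, Sox13, a further SoxD gene, fell in Kmt2d+/+ clones by DESeq2 (-1.72, adjusted p = 0.00421), where 14.2% of all genes passed. It also fell by limma-voom (-1.89, adjusted p = 0.0395), where 5.08% passed, but did not pass in edgeR. By both tools it was the 1 of the 8 that passed.

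The next question was what the known cartilage targets of the trio did in the same libraries. Of a list of 30 such genes, 29 were tested, and at day 7 7 rose in Kmt2d-/- clones relative to Kmt2d+/+ clones and 0 fell, where 0.905% of all tested genes rose. The median log2 difference was 3.29, against -0.02 over all tested genes, and 28 of 29 were positive. Col2a1, the type II collagen of cartilage and the best known target of Sox9, had at day 7 20470 and 24450 CPM in Kmt2d-/- clones, against 332, 126 and 253 CPM in Kmt2d+/+ clones. No Kmt2d+/+ library came near the Kmt2d-/- ones. The log2 difference was 6.57 ± 1.02 (SE, edgeR adjusted p = 0.0252). The difference of the trio itself was far smaller, near 3-fold.

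Papss2, an enzyme that makes the sulfate donor for cartilage proteoglycans, stood at 95.9 ± 17.5 CPM in Kmt2d-/- clones and 1.60 ± 0.418 CPM in Kmt2d+/+ clones at day 7 (SD, log2 difference 5.91, edgeR adjusted p = 0.00883). The 3 matrilins of the list, adaptor proteins of the cartilage matrix, each rose: Matn4 by 5.98 (edgeR adjusted p = 0.0101), Matn3 by 3.39 (edgeR adjusted p = 0.0346) and Matn1 by 2.90 (edgeR adjusted p = 0.0369). Fgfr3, a receptor of growth plate chondrocytes, stood at 199.8 ± 107 CPM in Kmt2d-/- clones and 20.5 ± 11.8 CPM in Kmt2d+/+ clones (3.29, edgeR adjusted p = 0.0235). Mia, a secreted cartilage protein, rose by 3.94 (edgeR adjusted p = 0.0411). Acan, the main proteoglycan of cartilage, averaged 692 ± 341 CPM in Kmt2d-/- clones and 25.8 ± 13.1 CPM in Kmt2d+/+ clones and did not pass. The 7 calls became 0 without Kmt2d+/+ clone 3, 1 without Kmt2d+/+ clone 1, 5 without Kmt2d+/+ clone 2, 1 without Kmt2d-/- clone 1 and 3 without Kmt2d-/- clone 2. These counts are of all 29 targets in each fit, and the number of all tested genes that passed differed between the fits as well. DESeq2 passed 19 of the 29, where 10.4% of all genes passed.

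At day 0 2 of the 29 targets passed as higher in Kmt2d-/- clones and 0 as lower, where 1.17% of all tested genes passed as higher, with a median log2 difference of 1.15 against 0.01 over all genes. Col2a1 had 2533 and 806 CPM in Kmt2d-/- clones, against 2.72, 34.4 and 8.66 CPM in Kmt2d+/+ clones (6.77, edgeR adjusted p = 0.0230). Papss2 stood at 9.53 ± 9.75 CPM in Kmt2d-/- clones and 0.258 ± 0.102 CPM in Kmt2d+/+ clones (SD, 5.18, edgeR adjusted p = 0.0190). Kmt2d-/- clone 1 had the higher Col2a1 and the higher Sox6 level of the 2 clones at day 0, but the lower Sox5 level. Without Kmt2d+/+ clone 1 or clone 3 none of the 29 passed. Without Kmt2d+/+ clone 2 6 of them did, in a fit that passed 3.21% of all genes as higher. Over all clones left out, the log2 difference of Col2a1 ranged from 5.72 to 8.18 and that of Papss2 from 3.33 to 5.97.

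**Figure D4:**
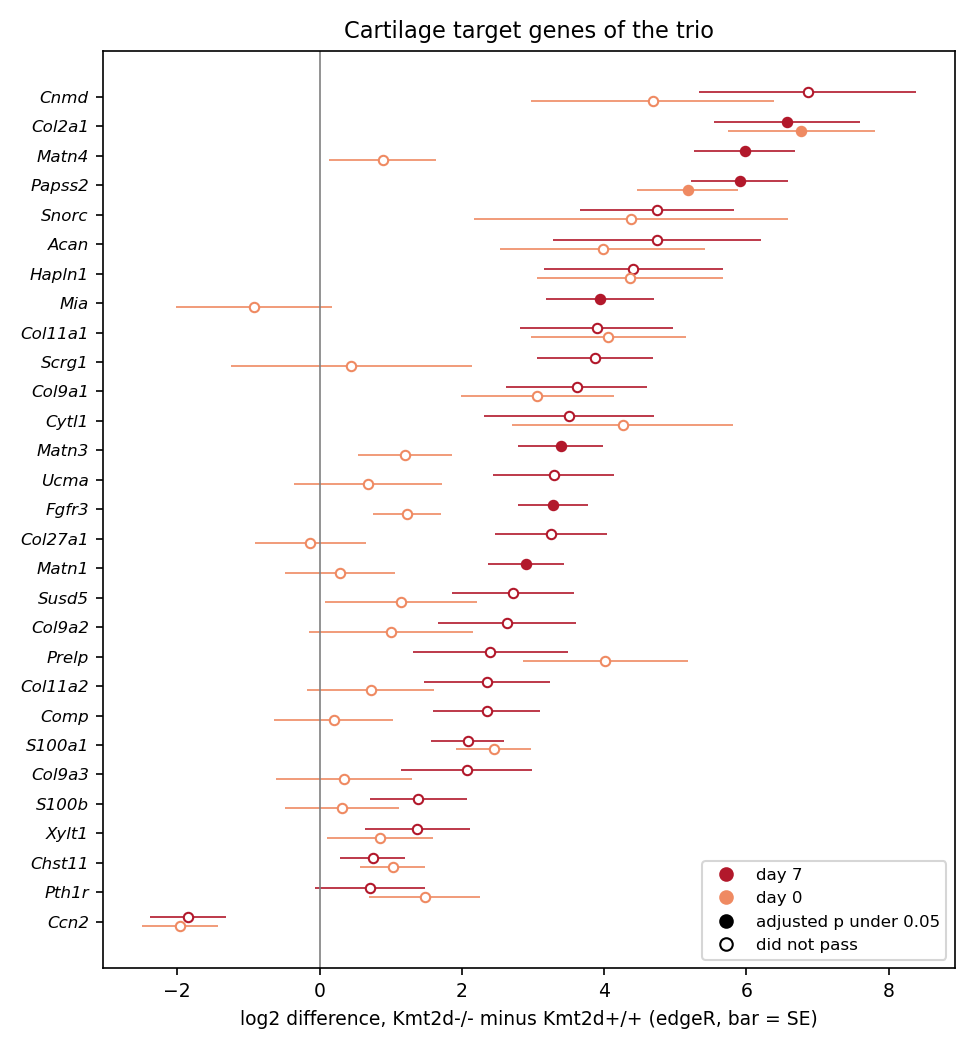
Log2 differences of 29 cartilage target genes at day 7 and day 0, Kmt2d-/- minus Kmt2d+/+ clones, from edgeR, with SE bars and filled points for an adjusted p under 0.05. At day 7 28 of 29 points lie to the right of 0, with a median of 3.29, and 7 are filled. At day 0 the median is 1.15 and 2 are filled.

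Between days the targets moved in both genotypes. In Kmt2d-/- clones 9 of 29 rose and 1 fell, where 0.672% of all tested genes rose (median log2 difference 4.48). Matn1 rose by 8.50, Matn4 by 6.73 and Matn3 by 4.95, while Ccn2, a matricellular growth factor, fell by 4.64 (edgeR adjusted p = 0.0207). In Kmt2d+/+ clones 12 rose and 1 fell, where 3.05% of all tested genes rose (median 3.07). Matn1 rose by 5.89 (edgeR adjusted p = 0.00741), Col9a1, a type IX collagen chain, by 5.79, Col2a1 by 3.95 and Pth1r, the parathyroid hormone receptor of the growth plate, by 3.67, while Ccn2 dropped by 4.74. The day effect differed between genotypes for none of the 29 in edgeR. There 6 had an unadjusted p under 0.05, against 3.67% of all tested genes, and DESeq2 passed 1, against 0.146% of all genes. The median of the day effect differences was 1.07, against -0.03 over all tested genes. All 10 calls in Kmt2d-/- clones and all 13 in Kmt2d+/+ clones were lost without Kmt2d+/+ clone 3. Over all tested genes, too, the number passing differed between such fits. For the day effect in Kmt2d-/- clones, 0 targets passed when Kmt2d-/- clone 1 was left out or only the groups compared were fitted, 1 when Kmt2d-/- clone 2 was, 6 when Kmt2d+/+ clone 1 was and 11 when Kmt2d+/+ clone 2 was. For that in Kmt2d+/+ clones, 0 passed when Kmt2d+/+ clone 1 was left out, 13 when clone 2 was, and 10 when either Kmt2d-/- clone was or only the groups compared were fitted.

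Undifferentiated Kmt2d-/- clones, whose trio levels could not be told from those of differentiated Kmt2d+/+ clones, had lower levels for 19 of the 29 targets. The median log2 difference of the 29 targets between these groups was -1.18, against -0.01 over all tested genes, of which 49.5% were higher. In edgeR 2.64% of all tested genes passed as higher here and 3.35% as lower. These shares differed from fit to fit when 1 clone was left out. Ccn2 (2.78) and Papss2 (2.58) passed as higher in Kmt2d-/- clones at day 0, and Matn1 (-5.60), Susd5, a hyaluronan-binding protein (-4.96), and S100b, a calcium-binding protein of chondrocytes and glia (-3.88), passed as lower, all by edgeR. The 5 calls became 0 without Kmt2d-/- clone 1 or without Kmt2d+/+ clone 3, 1 without Kmt2d+/+ clone 1 and 2 without Kmt2d-/- clone 2.

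Among 15 genes whose proteins work with Sox9, 13 were tested. Between genotypes 1 rose in Kmt2d-/- clones at day 7 (0.905% of all genes rose) and 0 at day 0 (1.17%). Wwp2, a ubiquitin ligase that also hosts the microRNA miR-140 in an intron, stood at 359 ± 72.6 CPM in Kmt2d-/- clones and 77.2 ± 28.7 CPM in Kmt2d+/+ clones at day 7 (SD, 4.65-fold, log2 difference 2.22, edgeR adjusted p = 0.0235). The call was lost when any one clone but Kmt2d+/+ clone 2 was left out. At day 0 5 of the 13 had an unadjusted p under 0.05 (20.2% of all genes) and 4 passed in DESeq2 (10.5% of all genes).

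Among 19 genes of signals and factors that turn Sox9 on, 15 were tested, and 1 rose at day 7, where 0.905% of all genes rose. Hif1a, the hypoxia factor that acts upstream of Sox9 in growth plates, stood at 446 ± 41.6 CPM in Kmt2d-/- clones and 175 ± 20.5 CPM in Kmt2d+/+ clones (SD, 2.55-fold, log2 difference 1.35, edgeR adjusted p = 0.0252). Of the fits that left out a clone, this call held only in the one without Kmt2d+/+ clone 2. At day 0 none of the 15 passed in edgeR, 5 had an unadjusted p under 0.05 (20.2% of all genes), and 5 passed in DESeq2 (10.5% of all genes). Bmp4, a bone morphogenetic protein and the most abundant of the list, had a log2 difference of 1.64 there (edgeR adjusted p = 0.0799).

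Among 15 genes known to hold back Sox9 or chondrocytes, all were tested, and none passed between genotypes in edgeR. At day 7 6 had an unadjusted p under 0.05 (19.9% of all genes) and 4 passed in DESeq2 (10.4%). At day 0 5 had an unadjusted p under 0.05 (20.2%) and 4 passed in DESeq2 (10.5%). Ctnnb1, the beta-catenin of Wnt signalling and the most abundant of them, had log2 differences of 0.37 at day 7 (edgeR adjusted p = 0.390) and 0.17 at day 0 (edgeR adjusted p = 0.702). From day 0 to day 7 in Kmt2d+/+ clones, Runx2, the factor of hypertrophic chondrocytes and osteoblasts, rose by 0.96 to 383 ± 85.8 CPM at day 7, against 197 ± 32.9 CPM at day 0 (SD, edgeR adjusted p = 0.0382). Snai2, a repressor of the Snail family, fell by 0.99 to 48.7 CPM at day 7, against 96.6 CPM at day 0 (edgeR adjusted p = 0.0347). Of the 15 genes, 1 passed in this comparison without Kmt2d+/+ clone 2, and 0 without Kmt2d+/+ clone 1 or clone 3. Over all clones left out, the log2 difference ranged from 0.70 to 1.24 for Runx2 and from -1.18 to -0.84 for Snai2.

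Markers of cell types were summed in each library. The 12 chondrocyte markers are all among the cartilage targets above, so they are not a separate observation. They summed at day 7 to 23200 and 27290 CPM in Kmt2d-/- clones against 826, 193 and 355 CPM in Kmt2d+/+ clones, and at day 0 to 2686 and 842 CPM against 11.8, 58.5 and 17.5 CPM. All 12 differences were positive at day 7, against 48.6% of all genes. In edgeR 3 of them passed as higher, where 0.905% of all genes did. With 1 Kmt2d+/+ clone left out, 0 to 2 of the 12 passed. Col2a1 made up most of the sum in the Kmt2d-/- libraries. Of 8 osteoblast markers none passed between genotypes in edgeR, with 1 unadjusted p under 0.05 at day 7 (19.9% of all genes) and 3 at day 0 (20.2%). Their sum was 23330 and 13270 CPM in Kmt2d-/- clones against 15750, 12140 and 11980 CPM in Kmt2d+/+ clones at day 7. Most of it was Col1a1, the type I collagen of bone, with 21760 and 12080 CPM in Kmt2d-/- clones against 14160, 10030 and 10210 CPM in Kmt2d+/+ clones. Of the 8 differences at day 7 only 3 were positive, with a median log2 difference of -0.62, against 48.6% and -0.02 over all tested genes. Phex, an endopeptidase of osteoblasts and osteocytes, was among the lower ones (edgeR adjusted p = 0.0598). It had 2.10 and 2.37 CPM in Kmt2d-/- clones against 26.4, 6.83 and 22.5 CPM in Kmt2d+/+ clones. Bglap, the osteocalcin gene, was lower as well, with 3.54 and 2.42 CPM against 3.68, 6.05 and 10.3 CPM (edgeR adjusted p = 0.396). At day 0 the sum was 30250 and 8243 CPM in Kmt2d-/- clones against 9267, 12550 and 10450 CPM in Kmt2d+/+ clones, with clone 1 of Kmt2d-/- standing apart. Tendon and fibroblast markers summed at day 7 to 1252 and 735 CPM in Kmt2d-/- clones against 2377, 3104 and 2344 CPM in Kmt2d+/+ clones. Most of this was Postn, the matrix protein periostin, with 889 and 565 CPM in Kmt2d-/- clones against 2211, 2955 and 2221 CPM in Kmt2d+/+ clones (edgeR adjusted p = 0.108). Fmod, the proteoglycan fibromodulin, was the other way round, with 280 and 129 CPM in Kmt2d-/- clones against 71.6, 68.9 and 25.5 CPM in Kmt2d+/+ clones (edgeR adjusted p = 0.142). Scx, the tendon factor scleraxis, fell in Kmt2d-/- clones (11.4 CPM against 34.0 CPM, log2 difference -1.58, edgeR adjusted p = 0.0346). No tendon marker passed at day 7 when any clone other than Kmt2d+/+ clone 2 was left out. Adipocyte markers summed to 23.4 to 185 CPM, neural and glial markers to 13.2 to 86.1 CPM, and skeletal muscle (0.17 to 0.81 CPM) and epithelial markers (0.32 to 2.14 CPM) were near 0. The part of the cell mix in the trio's differences was not tested.

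To see whether the differences extended along the chromosome, tested genes whose start lay within 1000 kb of each member's start were examined. There were 7 such genes for Sox9, 7 for Sox5 and 5 for Sox6. None passed between genotypes on either day in edgeR. At day 7 1 of the 7 near Sox9 had an unadjusted p under 0.05 and 0 near the others, against 19.9% of all genes. At day 0 2 near Sox9, 1 near Sox5 and 0 near Sox6 did, against 20.2% of all genes. By DESeq2 none passed at day 7, where 10.4% of all genes did. At day 0 1 near Sox9 and 1 near Sox5 passed, where 10.5% of all genes did. At day 7 their median log2 differences were 0.06, 0.05 and -0.04, against 1.60, 1.63 and 1.66 for the members. Sox9 lies in a gene desert: its nearest tested genes were Sstr2, whose start lies 837 kb toward higher coordinates (1.05, edgeR adjusted p = 0.672, mean 0.235 CPM), and Gm11677 at -1057 kb (-0.02). Next to Sox5 lay Bcat1 at 294 kb (-0.29) and Etnk1 at -1615 kb (-0.85, edgeR adjusted p = 0.155). Next to Sox6 lay 1110004F10Rik, whose start is 0.6 kb away, with 75.1 CPM on average and a log2 difference of 0.01 (edgeR adjusted p = 0.975). The closest gene to a member thus had a difference near 0 while Sox6 itself had 1.66. Plekha7, whose start lies 270 kb toward higher coordinates from that of Sox6, had a difference of like size. It was 1.52 at day 7 (edgeR adjusted p = 0.341) and 1.76 at day 0 (edgeR adjusted p = 0.275), at a mean of 2.47 CPM. These were the highest values of the 5 genes near Sox6, and the lowest were -0.39 at day 7 and -0.77 at day 0. On the other side Insc lay at -1295 kb (-1.02, edgeR adjusted p = 0.289).

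**Figure D5:**
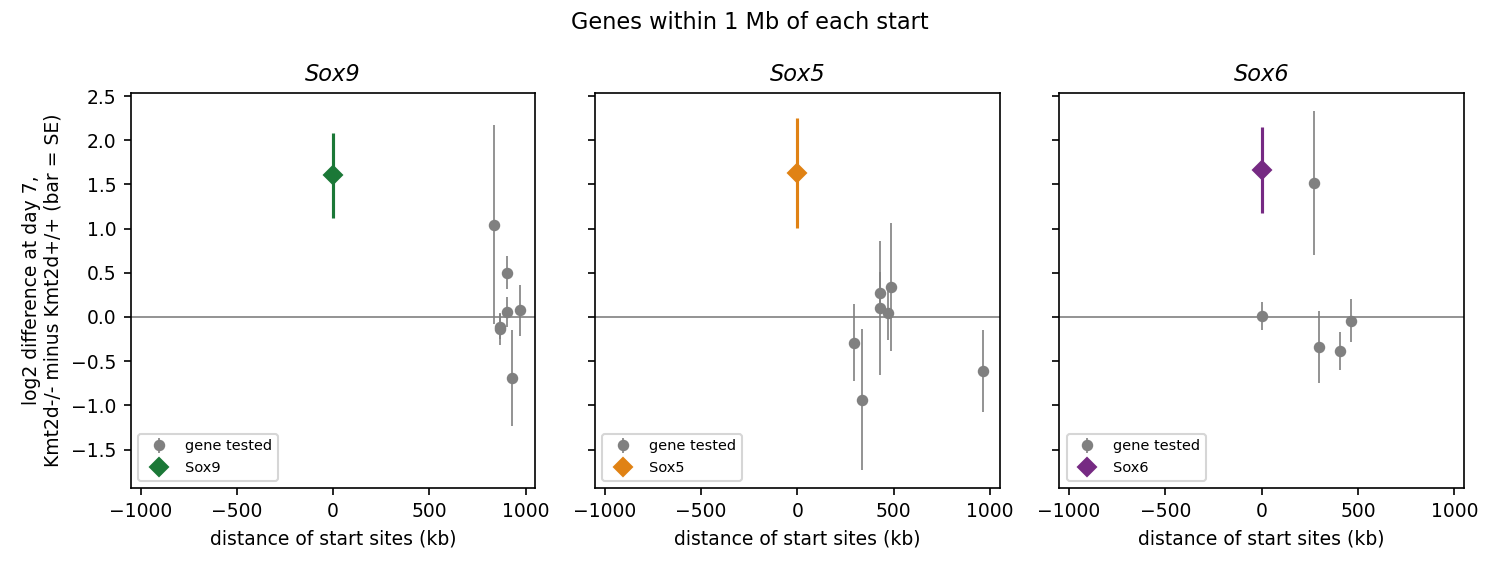
Log2 difference at day 7 between Kmt2d-/- and Kmt2d+/+ clones (edgeR, with SE bars) of tested genes against the distance of their start from that of Sox9, Sox5 or Sox6 in kb. The members, drawn as diamonds at 0 kb, lie at 1.60, 1.63 and 1.66, and the medians of the grey neighbours are 0.06, 0.05 and -0.04.

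Genes with a pattern like that of each member were looked for over the 10 libraries, among the 10268 named coding genes that averaged 5 CPM or more. For Sox9 the Pearson correlation of log2 CPM was highest with Foxc1 (0.983), a forkhead factor of skeletal development, followed by Igbp1 (0.975), B230118H07Rik (0.972), Klc4 (0.971) and Tmco3 (0.969). Foxc1 had at day 7 333 and 345 CPM in Kmt2d-/- clones against 269, 228 and 194 CPM in Kmt2d+/+ clones, and at day 0 271 and 255 CPM against 146, 164 and 128 CPM. Its differences were smaller than those of Sox9. It rose by 0.85 in Kmt2d-/- clones at day 0 (edgeR adjusted p = 0.0456), a call that held without Kmt2d+/+ clone 2 (adjusted p = 0.0393) and was lost without any other clone (up to 0.238), and at day 7 its log2 difference was 0.56 (edgeR adjusted p = 0.128). Genes that start within 10 Mb of Foxc1 were higher as well, with a median log2 difference over 107 genes of 0.55 at day 7 and 0.50 at day 0, and the part of this regional difference in the Foxc1 values and their likeness to Sox9 was not tested. For Sox5 the closest were Acot13 (0.966), Uqcr11 (0.961), Hscb (0.959), Bnip3l (0.956) and Ddit4l (0.955). For Sox6 they were Serf2 (0.972), Med28 (0.968), Dynlrb1 (0.963), Atp5e (0.963) and Rab14 (0.961). The 3 lists of 5 had no gene in common.

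The members were not each other's closest genes. The correlation was 0.809 between Sox9 and Sox5, 0.853 between Sox9 and Sox6 and 0.590 between Sox5 and Sox6, so the SoxD pair had the lowest value. The runs of a library differed by up to 5.34-fold for Sox6 and 2.77-fold for Sox5, against 1.16-fold for Sox9. The part of this error in the 3 correlations was not tested. Col2a1 correlated with Sox9 at 0.938, which put it at rank 56 of the Sox9 list, with Sox6 at 0.912 and with Sox5 at 0.765. These values are over 10 libraries that share clones, days and genotypes, so they are descriptions only.

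The promoters of Sox5 and Sox6 were searched for the core letters that Sox factors bind, since the trio can act on its own genes. Sox9 had no promoter window in the set used and was not searched. In the RefSeq promoter windows of 300 bases around each start, on either strand, AACAAT occurred in 10.7% and ACAAAG in 18.7% of 32851 windows. The 1 window of Sox5 held neither, and it lies far inside the gene from the outermost annotated start, at chr6:143947057-143947356. Of the 6 windows of Sox6, 5 held ACAAAG, 1 of which also held AACAAT, and 1 held neither. The upstream bases of the outermost, with 1 ACAAAG, are shown (RefSeq, GRCm38.p6, chr7:116038797-116038994, minus strand, 198 bases of 39.4% GC), with the match in capitals.
Sox6 promoter: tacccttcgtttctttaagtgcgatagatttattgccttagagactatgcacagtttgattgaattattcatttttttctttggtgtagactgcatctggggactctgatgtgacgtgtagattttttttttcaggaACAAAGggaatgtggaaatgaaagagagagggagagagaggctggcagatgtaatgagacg
Such a match is a description of the letters and not a measured binding site. No binding data were among the files analysed here.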

How the data were processed

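Polyadenylated RNA was sequenced from ATDC5 clones after TRIzol extraction with the NEBNext Ultra II kit, per the labels' protocols. The authors deposited 1 table of gene-level estimated counts, not normalized, with 2 flow-cell runs per library. Salmon, edgeR, limma, DESeq2 and GRCm38 are named without versions, per the submitters' processing notes. Of the nonzero deposited estimated counts, 0.351% lay within 0.001 of a whole number. The sources used here do not say whether strand was used in counting, so antisense reads cannot be told apart.

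The 2 runs of each library were summed and rounded. Genes were filtered with filterByExpr, scaled by TMM (factors 0.879 to 1.11) and tested with edgeR 4.0.16 (glmQLFit, 4 group means, 10 libraries, 6 residual degrees of freedom, Benjamini-Hochberg adjustment over 15467 genes, threshold 0.05) in R 4.3.3. Without the clone in the fit, p-values rest on the spread between clonal lines within groups, and the 2 libraries of a clone are treated as independent. With the clone as a term in edgeR, they rest on the spread of day changes within clones. With the clone as a random block in limma-voom, the correlation of a clone's 2 libraries is allowed for. Symbols came from GENCODE vM21. Alternatives were DESeq2 1.42.0, limma-voom 3.58.1, other scalings and filters, each run alone, only the groups compared, each clone left out, and the clone as a replicate block. A clone's numbers pair its 2 days because both come from the same line. The deviations of its 2 libraries from their group means correlated at 0.463 in both Kmt2d-/- clones. With 2 clones in a group these deviations mirror each other, so this is 1 value. In the Kmt2d+/+ clones the correlations were 0.363, 0.571 and 0.432, which also depend on one another because deviations within a group cancel out. Named are the 3 members, all detected Sox genes, up to 6 passing genes per list and comparison by smallest p (else the most abundant), the 5 genes most like each member, and the nearest tested gene on each side. Acan, Col1a1, Phex, Bglap, Postn, Fmod and the DESeq2 calls of single Sox genes were added after their values were seen. One gene that the rule names is not reported here. The members and gene lists were chosen with earlier results of these data known. Correlations used log2 CPM with a prior count of 2. The test was checked on simulated data. Intervals cover the spread between clones, and those between runs counting error only.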

Additional observations from a re-analysis of the deposited data

How the results depend on the processing

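With only 2 or 3 clones per group, counts of passing genes depended on tool and design. At day 7 the genotype comparison passed 1590 genes in DESeq2, 533 in limma-voom, 184 from run 2 alone, 55 when only the groups compared were fitted and 442 with the replicate block in limma-voom. At day 0 these were 1602 in DESeq2, 9 with only the groups compared and 193 with the replicate block. The day effect in Kmt2d-/- clones passed 1007 in DESeq2, 0 with only the groups compared, 862 with a clone term and 1302 with the block in limma-voom, and in Kmt2d+/+ clones 2237, 2789 with the clone term and 3457 with the block. DESeq2 passed 23 genes for the interaction. Kmt2d-/- clones at day 0 against Kmt2d+/+ clones at day 7 gave 2461 in DESeq2 and 209 with only the groups compared. Leaving out 1 clone gave 10 to 272 genes at day 7, 10 to 912 at day 0, 0 to 183 and 0 to 862 for the day effect in Kmt2d-/- and Kmt2d+/+ clones, 0 to 0 for the interaction and 27 to 1054 for the last comparison. Where 1 Kmt2d-/- clone remains, it is assumed to vary like the other groups. The fewest passed without Kmt2d+/+ clone 3, which takes a sample away. No cause was tested.

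For Sox9 the day 7 genotype difference was 1.60 in DESeq2 and the day 0 one 1.98, both passing. The Sox9 day effect in Kmt2d+/+ clones passed at 1.82 in DESeq2, 1.89 in limma-voom, 1.86 with upper-quartile scaling, 1.82 with no filter, 1.83 at a mean of at least 5 CPM, and 1.90 and 1.89 with the replicate block. In Kmt2d-/- clones it passed at 1.43 with the block in limma-voom. Sox5 passed for the day effect in Kmt2d+/+ clones at 1.95 in DESeq2, 2.31 from run 2 alone, 1.96 with only the groups compared, and 1.92 and 1.90 with the block, and in Kmt2d-/- clones at 2.40 with the block in limma-voom. Sox6 passed at day 7 at 1.66 in DESeq2 and 1.61 from run 1 alone. The Sox5 interaction turned positive in limma-voom (0.50), run 1 alone (0.15), the clone term (0.47) and the block in limma-voom (0.50), and also at 1.62 without Kmt2d-/- clone 2 and 0.28 without Kmt2d+/+ clone 1. The other turns were Sox9 interaction 0.21 without Kmt2d+/+ clone 1, Sox5 at day 0 -0.21 without Kmt2d-/- clone 2, and Kmt2d-/- day 0 against Kmt2d+/+ day 7 at -0.069 for Sox9 without Kmt2d+/+ clone 3, 0.57 for Sox5 and -0.27 for Sox6 without Kmt2d-/- clone 1. None of the values that turned had passed in edgeR, and the cause was not tested.

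Over all clones left out, Sox9 ranged 1.37 to 2.07 (day 7), 1.66 to 2.59 (day 0), 1.39 to 1.45 and 1.23 to 2.56 (day effect in Kmt2d-/- and Kmt2d+/+ clones), -1.13 to 0.21 (interaction) and -0.069 to 0.64 (Kmt2d-/- day 0 against Kmt2d+/+ day 7). In the same order Sox5 ranged 1.39 to 1.84, -0.21 to 2.52, 1.25 to 3.58, 1.58 to 2.22, -0.70 to 1.62 and -2.17 to 0.57, and Sox6 1.41 to 2.08, 0.37 to 1.77, 0.76 to 1.68, 0.0024 to 1.07, 0.011 to 1.08 and -0.27 to 1.12. Of 44 passing calls of list genes, 44 still passed in DESeq2, 29 in limma-voom, 37 with the block in limma-voom, 12 without Kmt2d-/- clone 1, 19 without Kmt2d-/- clone 2, 6 without Kmt2d+/+ clone 1, 32 without Kmt2d+/+ clone 2 and 0 without Kmt2d+/+ clone 3, and none turned direction.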

Other observations

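Tested genes that start within 10 Mb of Foxc1, the gene whose pattern was most like that of Sox9, were looked at after that correlation had been seen. Around Foxc1, 107 such genes had a median log2 difference between Kmt2d-/- and Kmt2d+/+ clones of 0.55 at day 7, with 9 passing as higher and 2 as lower in edgeR, where the median of all tested genes was -0.02 and 0.905% passed as higher and 0.97% as lower. At day 0 the median around Foxc1 was 0.50, with 6 higher and 0 lower, where the median of all genes was 0.01 and 1.17% passed as higher. Around Sox9 the median of 260 genes was 0.03 at day 7 and 0.05 at day 0, with 1 higher and 1 lower on each day. Around Sox5 it was -0.14 over 86 genes at day 7, with 0 higher and 2 lower, and 0.03 at day 0, with 0 higher and 1 lower. Around Sox6 it was -0.24 over 119 genes at day 7 and -0.26 at day 0, with 0 higher and 3 lower on each day.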
